A study of Homo sapiens with 8 samples.

Results

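The 10 names described here took 14 rows of the miRNA count table, which holds 2026 rows in all. They are miRNA catalogue entries that overlap small nucleolar RNA (snoRNA) genes or resemble transfer RNA (tRNA). The rule was the name alone, with or without a suffix for the 3p or 5p arm of the hairpin. The snoRNA-overlapping class holds 10 rows, from hsa-miR-664a, hsa-miR-664b, hsa-miR-1248, hsa-miR-1291, hsa-miR-3607 and hsa-miR-3653. The tRNA-resembling class holds 4 rows, those of hsa-miR-1260a, hsa-miR-1260b, hsa-miR-4454 and hsa-miR-7975. The prefix hsa, for human, is left off from here on. Small RNA was sequenced from HCT116, a human colorectal cancer cell line, grown as spheroids without serum and sorted with an antibody against CD44v6, a splice form of the cell surface receptor CD44. The 2 CD44v6-positive samples were set against the 2 CD44v6-negative samples of the same line. Each sample joins 2 sequencing entries of the labels, and dead cells were removed in the sort. The labels name no separate cultures within a group, so a p-value here reflects the scatter of these samples alone, and that scatter may be technical. In sorted bulk RNA, fewer cells holding an RNA and less of it per cell cannot be told apart.

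A canonical miRNA is cut from a hairpin by the nucleases Drosha and Dicer and then guides an Argonaute protein to matching messenger RNAs, mainly through its seed (bases 2 to 8). SnoRNAs are guides of another kind: those of the H/ACA type direct the conversion of uridine to pseudouridine in ribosomal and spliceosomal RNA, and those of the C/D type direct methylation of the ribose. Mature tRNAs carry the bases CCA at their 3′ end, added after transcription. Fragments of both kinds of RNA are found in small RNA libraries, and a read that matches a catalogue entry may come from the parent RNA, since counting by sequence alone does not separate them.

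The mature sequences are shown because they carry the features that divide the classes. RefSeq (GRCh38.p14) gave a sequence for 10 of the 14 rows, and the capitals mark the seed. The tRNA-resembling sequences come first.
miR-1260a (18 bases, chr14:77266231-77266248, plus strand): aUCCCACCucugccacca
miR-1260b (19 bases, chr11:96341447-96341465, plus strand): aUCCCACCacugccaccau
miR-4454 (20 bases, chr4:163093607-163093626, minus strand): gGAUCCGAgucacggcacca
miR-7975 (18 bases, chr19:55123225-55123242, minus strand): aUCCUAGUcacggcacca
The snoRNA-overlapping sequences are longer.
miR-664a-3p (23 bases, chr1:220200549-220200571, minus strand): uAUUCAUUuauccccagccuaca
miR-664a-5p (24 bases, chr1:220200586-220200609, minus strand): aCUGGCUAgggaaaaugauuggau
miR-664b-3p (22 bases, chrX:154768635-154768656, plus strand): uUCAUUUGccucccagccuaca
miR-664b-5p (24 bases, chrX:154768596-154768619, plus strand): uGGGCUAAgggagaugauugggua
miR-1248 (27 bases, chr3:186786675-186786701, plus strand): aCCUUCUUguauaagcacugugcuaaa
miR-1291 (24 bases, chr12:48654494-48654517, minus strand): uGGCCCUGacugaagaccagcagu

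The tRNA-resembling sequences were 18 to 20 bases long, against 22 to 27 bases in the snoRNA-overlapping class and a median of 22 bases over the 1799 table rows with a sequence, of which 11.0% had 20 bases or fewer. The sequences of miR-1260a, miR-4454 and miR-7975 end in ACCA, as do only 6 of those 1799 rows (0.334%), so they are 3 of the 6. miR-1260b ends in ACCA followed by a U. miR-1260a and miR-1260b share their seed with no other of the 1799 rows with a sequence. They differ by 1 substitution over the first 18 bases, U9A from miR-1260a to miR-1260b, counted from the 5′ end. Over the last 18 bases, miR-4454 differs from miR-7975 by 1 substitution, U5G from miR-7975 to miR-4454, counted from the 5′ end of miR-7975. How the authors assigned reads with a mismatch is not given in the sources used here, so the split of reads within each of these pairs is uncertain.

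No hairpin of the tRNA-resembling class overlaps an annotated snoRNA in GENCODE release 29. MIR1260A lies opposite an exon of NGB, the gene of neuroglobin, and MIR1260B opposite an exon of MAML2, a coactivator of Notch signalling. MIR4454 and MIR7975 overlap no other annotated gene. No sequence of the class was found whole in a GENCODE transcript of a type other than miRNA, and matches to miRNA hairpins were set aside. A sequence whose CCA end was added after transcription would be missed by this search. Sequences of nuclear tRNAs were not used here, so the resemblance itself was not measured beyond the CCA end.

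Every hairpin of the snoRNA-overlapping class that GENCODE lists overlaps a snoRNA gene on the same strand. MIR664A shares 74 of its 82 bases with SNORA36B, in an intron of RAB3GAP2. All 61 bases of MIR664B lie in SNORA36A, within DKC1, the gene of dyskerin, which is the pseudouridine synthase of H/ACA particles. MIR1248 shares 103 of 106 bases with SNORA81, within EIF4A2, which encodes an RNA helicase of translation initiation. MIR1291 shares 75 of 87 bases with SNORA2C in an intron of KANSL2, a subunit of a histone acetyltransferase complex. MIR3653 spans all 96 bases of SNORD125, in an intron of AP1B1, which encodes a clathrin adaptor subunit. RefSeq gives MIR3607 as a synonym of SNORD138, a gene of 63 bases at chr5:86620506-86620568. The first 4 of these snoRNAs are of the H/ACA type and the last 2 of the C/D type.

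The parent snoRNAs of the miR-664 entries show how closely the arms follow the snoRNA (GENCODE release 29 on GRCh38, with the 5p and 3p arms in capitals).
SNORA36B (131 bases, chr1:220200546-220200676, minus strand): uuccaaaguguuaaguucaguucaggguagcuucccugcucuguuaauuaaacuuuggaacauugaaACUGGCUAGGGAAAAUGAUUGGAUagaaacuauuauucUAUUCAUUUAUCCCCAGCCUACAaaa
SNORA36A (132 bases, chrX:154768528-154768659, plus strand): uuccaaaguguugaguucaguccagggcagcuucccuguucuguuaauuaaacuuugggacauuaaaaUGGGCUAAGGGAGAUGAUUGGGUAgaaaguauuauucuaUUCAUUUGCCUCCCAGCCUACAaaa
In each, the 3p arm ends in ACA, with 3 bases left before the end of the snoRNA. An ACA box so placed is the defining feature of this snoRNA type, and 26 of the 1799 table rows (1.45%) end in ACA. The 3p arms share their last 11 bases. The sequence of miR-664b-3p is also found whole in SNORA36C, so its reads could come from that gene too. miR-1248 begins at the first base of SNORA81 and miR-1291 at the second base of SNORA2C.

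The libraries were unequal in depth. The CD44v6-positive samples held 919802 and 154481 reads, against 7880631 and 4592278 reads in the CD44v6-negative samples, so depth and group cannot be told apart. Levels are CPM (reads of an entry per 1000000 reads) scaled by TMM, edgeR's trimmed mean scaling, and are not divided by length. A single read was worth 1.08 and 5.21 CPM in CD44v6-positive samples 1 and 2, and 0.191 and 0.181 CPM in CD44v6-negative samples 1 and 2. A count of 0 allows up to 3 reads, which is 3.24 and 15.6 CPM in the positive samples and 0.574 and 0.544 CPM in the negative ones. TMM scaled the 2 negative libraries in opposite directions, by factors of 0.663 and 1.20 of the total, against 1.01 and 1.24 in the positive libraries. The intervals and limits given here hold for counting error alone, because PCR copies of a molecule are counted as separate reads. All 4 miRNAs typical of gut epithelium (miR-200c-3p, miR-141-3p, miR-192-5p and miR-194-5p) were read in every sample. Their sums were 10199 and 8172 CPM in positive and 23073 and 11176 CPM in negative samples. Only miR-141-3p was lower in both positive samples than in both negative ones. miR-192-5p (1032 and 4560 against 1888 and 1322 CPM) and miR-194-5p (97.1 and 235 against 116 and 78.5 CPM) were highest in positive sample 2. Another 4 miRNAs are typical of other cells (miR-451a, miR-142-3p, miR-122-5p and miR-133a-3p). Their sums were 78.8 and 912 CPM in positive and 45.9 and 31.9 CPM in negative samples. The members did not all follow these sums. miR-142-3p was at 9.71 and 20.8 CPM in positive and 15.1 and 20.3 CPM in negative samples. miR-451a was high in positive sample 2 alone, at 15.1 and 281 CPM in positive and 24.9 and 7.62 CPM in negative samples. The muscle miRNA miR-133a-3p had 0 reads in positive sample 2 and negative sample 2, and the liver miRNA miR-122-5p was at 48.6 and 609.7 CPM in the positive samples, against 4.59 and 3.99 CPM in the negative samples. Their part in the results that follow was not tested.

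The miR-1260 pair and the C/D entry miR-3607-3p had higher levels in each CD44v6-positive sample than in either CD44v6-negative sample, by 2.08-fold between the group means of the pair's sum and by a log2 fold change of 2.57 ± 0.81 (SE) for miR-3607-3p. The H/ACA entries together averaged 58.7 ± 31.4 CPM in the positive group and 58.5 ± 31.5 CPM in the negative group (SD, n = 2 each). Of the 14 rows, 7 had enough reads to be tested, 4 in the snoRNA-overlapping and 3 in the tRNA-resembling class. With edgeR's quasi-likelihood test on the counts, 0 of the 7 passed an adjusted p under 0.05, as did 0% of all 570 tested rows. An unadjusted p under 0.05 was found for miR-3607-3p, miR-1260a and miR-4454, 3 of the 7, against 30.5% of all tested rows. miR-4454 passed the filter on low counts only through its positive samples, and the other 2 of 6 are a share near that background, so the count is no result about the members.

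**Figure D1:**
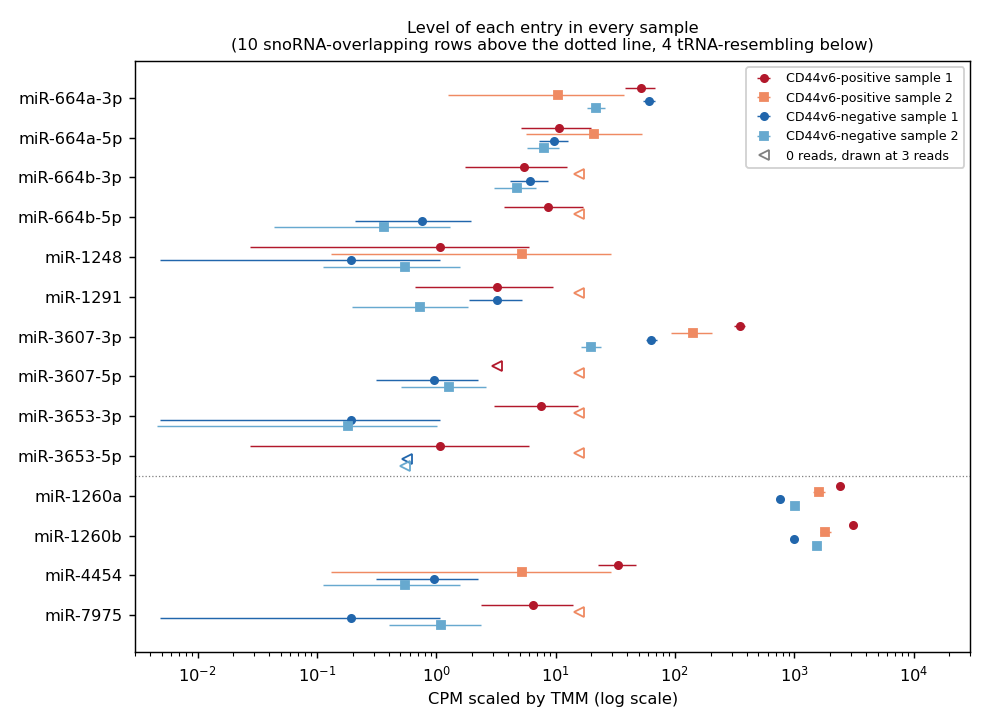
CPM scaled by TMM (log axis) of each of the 14 rows in every sample, as points with exact 95% Poisson intervals of counting error. Open triangles mark 0 reads and stand at the level of 3 reads. The miR-1260 rows lie between 757 and 3140 CPM, miR-3607-3p lies between 19.9 and 348.5 CPM, and no other row exceeds 60.7 CPM in any sample.

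miR-1260a and miR-1260b supplied nearly all reads of the tRNA-resembling class. miR-1260a was at 2425 and 1621 CPM in CD44v6-positive samples 1 and 2, against 757 and 1022 CPM in CD44v6-negative samples 1 and 2. Both positive samples lay above both negative samples. The log2 fold change was 1.19 ± 0.48, with an edgeR adjusted p of 0.154. miR-1260b was at 3140 and 1824 CPM in the positive samples, against 997 and 1548 CPM in the negative samples. The groups did not overlap here either, but negative sample 2 came close to positive sample 2. Its log2 fold change was 0.96 ± 0.51, with an edgeR adjusted p of 0.246. Both values were positive under every scaling, filter and left-out sample tried. With CD44v6-positive sample 1 left out, miR-1260a was at 0.74 and miR-1260b at 0.39. With CD44v6-positive sample 2 left out, miR-1260a was at 1.69 and miR-1260b at 1.55.

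The pair ranked high in each library. Among all 2026 rows, miR-1260b ranked 49 and 57 by level in the positive samples, against 86 and 61 in the negative samples. miR-1260a ranked 55 and 60 in the positive samples, against 97 and 78 in the negative samples. As a share of all reads, with no TMM scaling, the 2 rows made up 0.561% (95% exact binomial interval 0.546% to 0.576%) and 0.428% (0.396% to 0.462%) in the positive samples. In the negative samples they made up 0.116% (0.114% to 0.119%) and 0.309% (0.304% to 0.314%). Negative sample 1 stood apart from the other 3 samples by this measure, which TMM scaling reduced.

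The balance within the pair was similar in 3 of the 4 samples. The ratio of miR-1260b to miR-1260a reads was 1.30 (95% exact interval 1.23 to 1.37) and 1.13 (0.963 to 1.32) in the positive samples, against 1.32 (1.26 to 1.37) and 1.51 (1.46 to 1.57) in the negative samples. Only CD44v6-negative sample 2 had an interval clear of the other 3. The ratio needs no scaling, and the groups did not overlap in it, although positive sample 1 and negative sample 1 were within counting error of each other.

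miR-4454 was rare but uneven between the groups. It had 31 reads and 1 read in CD44v6-positive samples 1 and 2, against 5 and 3 reads in CD44v6-negative samples 1 and 2. At the unequal depths these were 33.5 and 5.21 CPM in positive and 0.957 and 0.544 CPM in negative samples. Both positive values lay above both negative ones, and the second rests on 1 read. Set against the summed 8 reads of the negative samples, the ratio was 44.9 (exact 95% interval 20.2 to 113) in positive sample 1 and 7.0 (0.158 to 52.2) in positive sample 2. The edgeR log2 fold change was 4.81 ± 1.03 with an adjusted p of 0.0787. Its passing the filter through the positive samples alone favoured a difference in that direction. DESeq2 called it, at an adjusted p of 0.00157, together with 13% of all tested rows.

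miR-7975, which shares its last 13 bases with miR-4454, had 6 and 0 reads in the positive samples, against 1 and 6 reads in the negative samples. It was not tested. Its level of 6.47 CPM in positive sample 1 (exact interval 2.38 to 14.1) lay above the 0.191 and 1.09 CPM of the negative samples, and the 0 reads of positive sample 2 allow up to 15.6 CPM.

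miR-3607-3p, from the C/D snoRNA locus, had the largest log2 fold change among the 4 tested rows of the snoRNA-overlapping class. It had 323 and 27 reads in CD44v6-positive samples 1 and 2, against 332 and 110 reads in CD44v6-negative samples 1 and 2. At those depths it was at 348.5 and 140.7 CPM in the positive samples, against 63.5 and 19.9 CPM in the negative samples. The groups did not overlap, and within each group the samples differed by over a factor of 2. The log2 fold change was 2.57 ± 0.81, with an edgeR adjusted p of 0.117. It was positive in each alternative that gave a value, from 1.65 without CD44v6-positive sample 1 to 3.70 without CD44v6-negative sample 1. DESeq2 called it (adjusted p = 0.0158). With a sample left out, the edgeR adjusted p was 0.0206 without CD44v6-negative sample 1 (26 of 498 rows called in all) and 0.00105 without CD44v6-positive sample 2 (27 of 700), but leaving out CD44v6-negative sample 2 gave 0.164 and leaving out CD44v6-positive sample 1 gave 0.216. Each of these fits has 1 sample in an arm, which is assumed to vary like the other group.

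The other C/D rows held few reads. miR-3607-5p had 0 and 0 reads in the positive samples, against 5 and 7 reads in the negative samples, and the limit of 3.24 CPM in positive sample 1 lies above the 0.957 and 1.27 CPM of the negative samples, so no difference was detectable at this depth. miR-3653-3p had 7 and 0 reads in the positive samples, against 1 and 1 in the negative samples. Its ratio in positive sample 1 to the summed negative samples was 40.6 (exact interval 7.72 to 400.3), which rests on 7 reads in 1 library. Without the filter on low counts edgeR called it (adjusted p = 0.0416), among 77 of 1510 rows called in all. miR-3653-5p had 1 read in all, in positive sample 1.

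The 3 tested H/ACA entries had log2 fold changes within 1 SE of 0. miR-664a-3p, the most abundant of them, was at 51.8 and 10.4 CPM in CD44v6-positive samples 1 and 2, against 60.7 and 21.9 CPM in CD44v6-negative samples 1 and 2. The groups overlapped, sample 1 lay above sample 2 in each group, and the positive sample 2 value rests on 2 reads. The log2 fold change of -0.26 ± 0.87 was within its SE of 0 (edgeR adjusted p = 0.856), and its sign changed with total count and upper quartile scaling, after GC correction, and without CD44v6-negative sample 1 or CD44v6-positive sample 2. miR-664a-5p was at 10.8 and 20.8 CPM in the positive samples, against 9.76 and 7.98 CPM in the negative samples. Its groups did not overlap, but the log2 fold change of 0.70 ± 0.74 was smaller than its SE (edgeR adjusted p = 0.562).

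miR-664b-3p had 5 and 0 reads in the positive samples, against 32 and 26 in the negative samples. Its levels of 5.40 and 0 CPM in positive and 6.12 and 4.71 CPM in negative samples overlapped, and the limit of 15.6 CPM for the sample with 0 reads exceeds all of them. The log2 fold change was -0.45 ± 0.98 (edgeR adjusted p = 0.783), and without CD44v6-positive sample 2 it was 0.21. miR-664b-5p had 8 and 0 reads in the positive samples, against 4 and 2 in the negative samples, and in positive sample 1 it was 15.5 times its level in the summed negative samples (exact interval 4.70 to 54.0). miR-1291 had 3 and 0 reads in the positive samples, against 17 and 4 in the negative samples. At the unequal depths miR-1291 was at 3.24 and 0 CPM in positive and 3.25 and 0.725 CPM in negative samples, which overlapped. miR-1248 had 1 and 1 reads in the positive samples, against 1 and 3 in the negative samples. Its levels were 1.08 and 5.21 CPM in positive and 0.191 and 0.544 CPM in negative samples, which did not overlap but rest on 6 reads in all. miR-664b-5p, miR-1291 and miR-1248 were not tested.

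**Figure D2:**
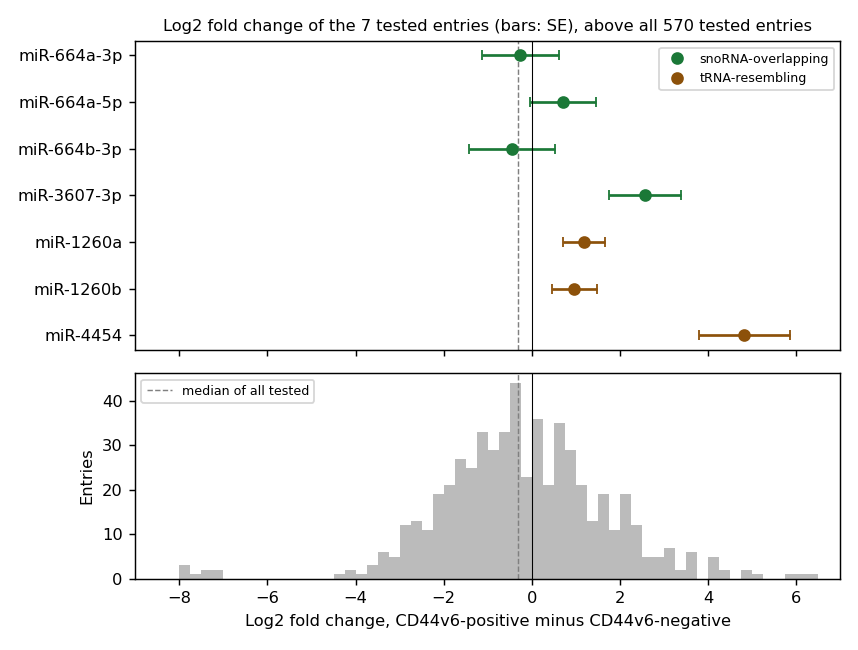
Log2 fold change (CD44v6-positive minus CD44v6-negative, edgeR) of the 7 tested rows with standard errors, above the distribution over all 570 tested rows. The dashed line is the median of all tested rows, -0.31. The 3 tRNA-resembling rows and miR-3607-3p lie above 0 by more than 1 SE, and the 3 tested miR-664 rows lie within 1 SE of 0.

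Among the 7 tested rows, 5 had positive values and 2 negative ones, and the median over them was 0.96 on the log2 scale, where the 570 tested rows as a whole had -0.31. A value above 0 was found in 44.6% of all tested rows. The groups did not overlap, with the positive samples higher, in 5 of the 7, and that held in 24.9% of all tested rows. These counts describe the rows and include miR-4454, which the filter kept for its positive samples. By class, the tested tRNA-resembling rows had a median of 1.19 and the tested snoRNA-overlapping rows a median of 0.22. TMM places the median of all tested rows at -0.31, and total count and upper quartile scaling place it at 0.0054 and 0.036.

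The tRNA-resembling sum was the larger in every sample, but the differences of the class sums between the groups had no stable order. The tRNA-resembling rows summed to 5605 and 3450 CPM in CD44v6-positive samples 1 and 2, against 1755 and 2572 CPM in CD44v6-negative samples 1 and 2. The snoRNA-overlapping rows summed to 438.1 and 177 CPM in the positive samples, against 145 and 57.7 CPM in the negative samples. Both sums lay higher in both positive samples. The mean log2 difference was 1.05 for the tRNA-resembling sum, with a pooled SD between samples of 0.45, and 1.61 for the snoRNA-overlapping sum, with a pooled SD of 0.93. With 1 row left out, that of miR-3607-3p, the snoRNA-overlapping difference was 0.041, whereas the tRNA-resembling difference without its leading row, miR-1260b, was 1.18. Without CD44v6-positive sample 1 the tRNA-resembling difference was 0.58 and the snoRNA-overlapping one 0.83. With CD44v6-positive sample 2 left out instead, the values were 1.63 and 2.49.

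**Figure D3:**
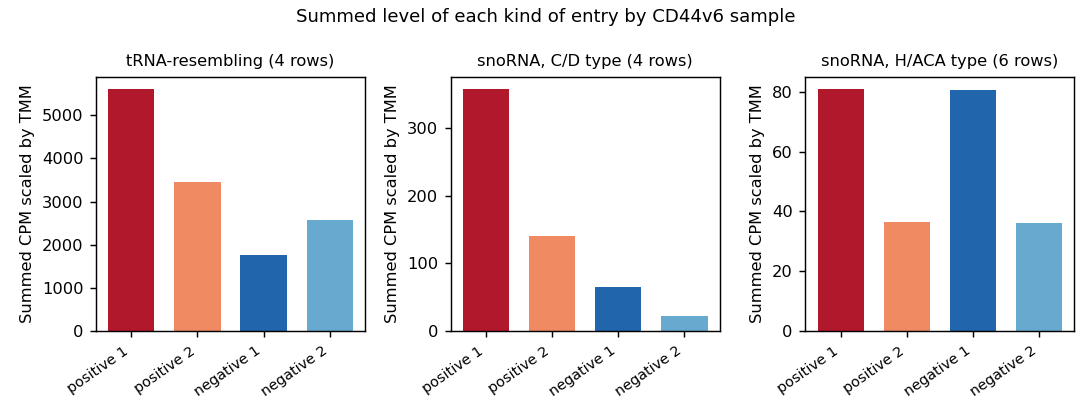
Summed CPM scaled by TMM in each sample for the 4 tRNA-resembling rows, the 4 C/D rows and the 6 H/ACA rows, each panel on its own axis from 0. Positive samples exceed negative samples in the first 2 panels, and in the H/ACA panel the samples numbered 1 are near 81 CPM and those numbered 2 near 36 CPM in both groups.

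The ratio of tRNA-resembling to snoRNA-overlapping reads, which needs no scaling, was 12.8 (95% exact interval 11.6 to 14.2) and 19.5 (13.8 to 28.4) in the positive samples, against 12.1 (11.2 to 13.0) and 44.6 (39.9 to 50.01) in the negative samples. The groups overlapped, and negative sample 2 stood apart. The log2 difference of the ratio between the groups was -0.56, which is less than its pooled SD of 0.99.

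Within the snoRNA-overlapping class the split by snoRNA type, which was chosen after the values were seen, gave a ratio that did not overlap between the groups. The C/D rows summed to 357 and 140.7 CPM in the positive samples, against 64.7 and 21.4 CPM in the negative samples. The H/ACA rows summed to 80.9 and 36.5 CPM in the positive samples, against 80.7 and 36.3 CPM in the negative samples. That near equality depends on the set of samples, since the H/ACA log2 difference of 0.0060 ran from -0.69 to 0.81 with a sample left out and was 0.70 without its most abundant row, miR-664a-3p. The C/D difference of 2.59 ran from 1.797 to 3.49 with a sample left out, but was 0.37 by the median of its rows in place of their sum. That median rests on rows with few or no reads. The ratio of C/D to H/ACA reads was 4.41 (exact interval 3.43 to 5.75) and 3.86 (1.64 to 10.5) in the positive samples, against 0.801 (0.692 to 0.926) and 0.59 (0.466 to 0.744) in the negative samples. No interval of one group reached one of the other. miR-3607-3p supplied 323 of 331 and 27 of 27 C/D reads in the positive samples, and 332 of 338 and 110 of 118 in the negative samples. Without it positive sample 2 held no C/D reads, so the C/D difference has no value without this row. The ratio thus describes miR-3607-3p rather than the C/D type. The H/ACA entry miR-3651, outside the class, had a log2 fold change of 2.41 ± 0.69. The ratio of miR-3607-3p to miR-664a-3p alone was 6.73 (4.96 to 9.31) and 13.5 (3.39 to 117) in the positive samples. In the negative samples it was 1.05 (0.895 to 1.23) and 0.909 (0.696 to 1.19). The value of 13.5 rests on 2 reads of miR-664a-3p, and in positive sample 2 miR-664a-5p supplied 4 of the 7 H/ACA reads. miR-3607-3p made up 79.6% and 79.4% of the class reads in the positive samples and 43.7% and 34.6% in the negative samples. With 2 samples against 2, an exact two-sided permutation test cannot give a p under 0.333, so these ratios stand as a description.

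**Figure D4:**
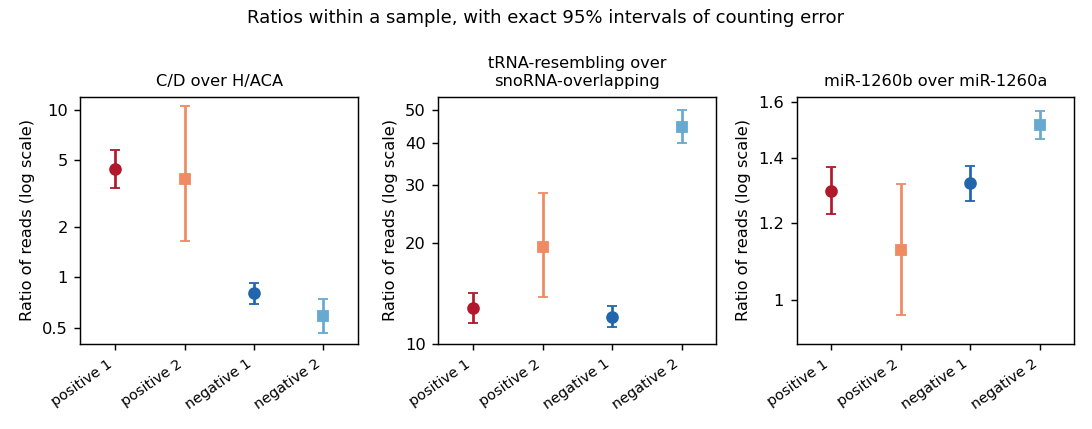
Ratios of reads within each sample (log axes), with exact 95% intervals of counting error. The C/D over H/ACA ratio separates the groups, at 4.41 and 3.86 against 0.801 and 0.59, whereas the ratio of the classes overlaps and that of miR-1260b to miR-1260a is set apart mainly in CD44v6-negative sample 2.

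The arms of a hairpin give a further measure that is free of scaling. Of the miR-664a reads, the 3p arm took 82.8% (exact interval 70.6% to 91.4%, 58 reads) and 33.3% (4.33% to 77.7%, 6 reads) in the positive samples, against 86.1% (82.2% to 89.5%, 368 reads) and 73.3% (65.9% to 79.9%, 165 reads) in the negative samples. Positive sample 1 lay between the negative samples, and positive sample 2 held too few reads to place. Of the miR-664b reads, the 3p arm took 38.5% (13.9% to 68.4%, 13 reads) in positive sample 1, against 88.9% (73.9% to 96.9%, 36 reads) and 92.9% (76.5% to 99.1%, 28 reads) in the negative samples. The intervals do not meet, but 1 positive library carries the difference, since positive sample 2 had 0 reads of this hairpin. The miR-664b-3p sequence is also found whole in SNORA36C and that of miR-664b-5p is not. Reads from SNORA36C could therefore change this share, which was not tested. For miR-3607 the 3p arm took 100% of 323 reads and 100% of 27 reads in the positive samples, against 98.5% of 337 reads and 94.0% of 117 reads in the negative samples.

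**Figure D5:**
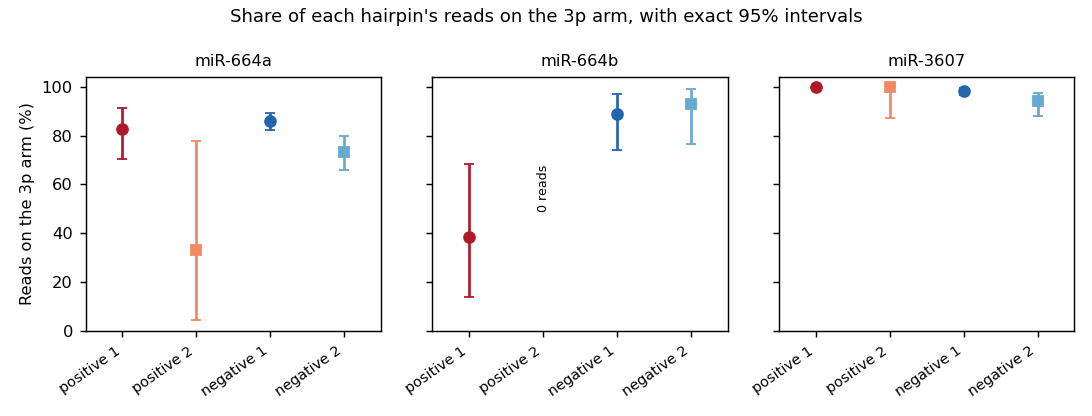
Share of reads on the 3p arm (percent) for miR-664a, miR-664b and miR-3607 in each sample, with exact 95% intervals of counting error. miR-3607 is at 94.0% or above in every sample, and miR-664b is at 38.5% in CD44v6-positive sample 1 against 88.9% and 92.9% in the CD44v6-negative samples. The miR-664b-3p sequence also lies whole in SNORA36C.

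A related list of 11 names that match other noncoding RNAs was read in the same way, and 5 of the names were in the table, as 6 rows. Only 2 rows had enough reads to be tested, and 0 passed in the main edgeR fit. Both had positive values, as did 44.6% of all tested rows. MIR3651 shares 87 of its 90 bases with the H/ACA snoRNA gene SNORA84. miR-3651 was at 22.7 and 36.5 CPM in the positive samples, against 5.36 and 5.26 CPM in the negative samples, and these groups did not overlap. Its log2 fold change was 2.41 ± 0.69, which edgeR gave an adjusted p of 0.117 and DESeq2 called (adjusted p = 0.0494). miR-1246, reported to match the spliceosomal U2 RNA, was at 1301 and 2757 CPM in the positive samples, against 81.5 and 56.4 CPM in the negative samples. The log2 fold change of miR-1246 was 4.88 ± 0.65, with the lowest p of all 570 tested rows (edgeR adjusted p = 0.0787). DESeq2 (adjusted p = 1.32e-10) and limma-voom (adjusted p = 0.0308) called miR-1246. Of all tested rows, DESeq2 called 13% and limma-voom 0.702%. miR-6516-5p had 0 and 0 reads in the positive samples, against 12 and 7 in the negative samples, and the limits of 3.24 and 15.6 CPM for 0 reads lie above the 2.30 and 1.27 CPM of the negative samples. miR-6516-3p was at 1.08 and 0 CPM in the positive samples, against 1.34 and 1.09 CPM in the negative samples. No difference was detectable at this depth for either arm.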

How the data were processed

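The authors deposited raw read counts per mature miRNA as 1 table of whole numbers, which was used here. GRCh38 is the build, and Bowtie 0.12.9, cutadapt 1.10, CASAVA 1.8.2 and DESeq2 the software, per the submitters' processing notes. Neither the miRNA annotation nor the handling of mismatches and multiple matches is given in the sources used here. The labels list 8 sequencing entries under 4 combined identities, and each column is 1 identity, so n was 2 per group.

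The counts were fitted over the whole table with edgeR 4.0.16 in R 4.3.3 (quasi-likelihood test, TMM scaling, filterByExpr at min.count 10 and min.total.count 15, Benjamini-Hochberg adjustment, threshold 0.05). Log2 fold changes are CD44v6-positive minus CD44v6-negative. DESeq2 1.42.0 (filtering tuned to 0.05) and limma-voom 3.58.1 were alternatives. Intervals are exact (Clopper-Pearson or Poisson, 95%), and the limits for 0 reads stand at 3 reads. Every member row present was named, with a related list and the 3 nearest profiles per class. Members and lists were chosen with earlier results of these data known.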

Additional observations from a re-analysis of the deposited data

How the results depend on the processing

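Of the 14 alternatives, 7 left the number of called members at 0. It was 2 of 7 tested members with total count scaling, 2 of 14 with no filter and 2 of 7 with DESeq2. It also rose above 0 without CD44v6-negative sample 1 or CD44v6-positive sample 2, where the count over all rows rose too. Called beside miR-4454 were miR-3607-3p with total count scaling and DESeq2, and miR-3653-3p with no filter. A count of 0 does not cover miR-4454 where it was not tested. That was so with a filter at 10 CPM in at least 2 samples and without CD44v6-positive sample 1. Nor does a count of 0 cover miR-3607-3p after GC correction. Over all tested rows the calls numbered 48 with total count scaling, 77 with no filter, 74 with DESeq2, 4 with limma-voom and 1 after GC correction, and 26 to 55 with a sample left out. With the replicate number as a block, edgeR called 4 of 7 tested members (miR-3607-3p, miR-1260a, miR-1260b and miR-4454, all higher). In that fit 228 of 570 rows were called in all, 99 higher and 129 lower. With the replicate block and GC correction together, edgeR called 1 of 6 tested members (miR-4454) and 118 of 497 rows. The labels do not say that equal numbers mark a shared culture, so the paired fit was not used as the main one. Deviations of same-numbered samples correlated at 0.375 over 570 rows with 2 pairs, and whether same-numbered samples share an effect was not tested.

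miR-664a-3p turned positive with total count scaling (0.085), upper quartile scaling (0.094), GC correction (0.80) and both GC correction and block (0.59), and ran from -2.09 to 0.71 with a sample left out. miR-664b-3p ran from -7.31 to 0.21, the lowest value resting on a sample with 0 reads. The tRNA-resembling class difference ran from 0.58 to 1.63 with a sample left out and was 2.12 by the class median. The snoRNA-overlapping difference was 0.096 by the class median and 0.041 without its leading row. The difference between the classes ran from -1.50 to 0.39 with a sample left out, and was 2.02 by the class median and 1.14 without the leading rows. The class medians rest in whole or in part on rows with few or no reads, such as miR-4454. A prior count of 2 reads, scaled to library size, was added before each median was taken. Apart from what left-out samples and rows show by construction, the cause was not tested. miR-3607-3p has no value after GC correction, since the correction used rows with a sequence (87.2% of tested rows). Depth limits 7 of the 14 rows, which were not tested.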

Other observations

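The nearest profiles were sought among 186 rows with a mean of at least 100 CPM and reads in every sample, by the Euclidean distance between log2 levels over the 4 samples, each centred on its mean. For the snoRNA-overlapping sum they were miR-1275 (distance 0.25), miR-222-3p (0.70) and miR-1468-5p (0.87). miR-1275 was at 702 and 281 CPM in CD44v6-positive and 207 and 105 CPM in CD44v6-negative samples. For the tRNA-resembling sum they were miR-330-3p (0.34), miR-423-3p (0.55) and miR-149-5p (0.57). miR-330-3p was at 181 and 135 CPM in the positive and 72.3 and 80.5 CPM in the negative samples. With 4 samples such likeness is a description only.

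The hairpins differed in predicted folding. RNAfold 2.7.2 gave a minimum free energy per base of -0.277 kcal/mol for MIR1260A, -0.285 for MIR664A and -0.325 for MIR1248, against a median of -0.452 over 1560 human hairpins in RefSeq. Only 4.62%, 6.09% and 12.8% of those hairpins were less stable per base. MIR664B (-0.407), MIR1291 (-0.409) and MIR1260B (-0.462) lay nearer to the median. The near-identical miR-1260a and miR-1260b thus sit in hairpins of unlike stability, the first less stable than all but 4.62%, the second near the middle.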
